A study of Mus musculus with 8 samples.

Results

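Wnt ligands are the genes described here, measured by RNA sequencing in primary mouse astrocytes with and without the protein RGC-32 and with and without TGF-β. The members are the 8 genes listed in upper case in the count table as WNT1, WNT4, WNT5A, WNT5B, WNT7A, WNT7B, WNT9A and WNT11, written below as Wnt1 to Wnt11. They were picked from 19 mouse Wnt genes with their levels in these same libraries known, so their response to TGF-β is given as a description and supports nothing further. The count table held 13937 genes, 15 of them Wnt genes, and 13509 genes had counts high enough to be tested, all 8 members among them.

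The astrocytes came from the brains of pups on postnatal day 1 of the C57BL/6 strain, either WT or RGC-32 KO. WT control and RGC-32 KO control cells were untreated, and WT TGF-β and RGC-32 KO TGF-β cells received TGF-β at 10 ng/ml for 24 h. Each of the 4 groups had 2 libraries, described as biological replicates, and the sources do not say which pups or cultures each came from. The cells of all 8 libraries were grown in serum and shaken to remove neurons and oligodendrocyte precursors, after the meninges had been taken off. They were kept without serum overnight before stimulation, so they are adherent cultured glia and not astrocytes in tissue.

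Wnt proteins are secreted, lipid-modified signals that act over short distances. In the canonical branch a Wnt binds a Frizzled receptor together with Lrp5 or Lrp6, beta-catenin accumulates, and TCF/LEF factors switch on target genes. In the non-canonical branches Wnts act through Frizzled with partners such as Ror2 on cell polarity and movement. In the brain, Wnt1 patterns the midbrain, and Wnt7a and Wnt7b from neural cells act on endothelial cells during growth of the vessels and formation of the blood-brain barrier.

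Depth ran from 14920561 to 18956038 counts per library, with a median of 15857266. Rgcc, the gene of RGC-32, had between 80 and 362 counts in the WT libraries and between 26 and 64 in the RGC-32 KO libraries, so the ranges did not overlap and no KO library was at 0. Astrocyte markers were present (10 of 10 genes, summed level 3330 to 5630 CPM, which scales counts to a common library total). Markers of meningeal fibroblasts were present as well (9 of 10 genes, with Slc22a6 not in the table), and those of neurons were in part not in the table (6 of 10 genes present, without Rbfox3, Snap25, Slc17a7 and Nefl).

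Libraries that carried the same replicate number were related, alike within a treatment and opposite between treatments in their deviations, in ways the groups do not account for. Across 12151 genes, the deviation of replicate 1 from replicate 2 correlated at r = 0.587 between the WT and KO controls and at r = 0.329 between the WT and KO TGF-β groups, while control and TGF-β groups correlated negatively, at r = -0.312 in WT and r = -0.321 in KO. In the table of FPKM values (fragments per transcript length and library total), between 1004 and 1192 genes had exactly the same value in each of the 12 pairs of libraries with the same number, and 0 genes did in the 16 pairs with different numbers. For Wnt1 the FPKM values of the WT and KO controls were identical within each number, at 0.0596 for replicate 1 and 0.0195 for replicate 2. The counts of Wnt1 (1 and 2) and of Wnt11 (18 and 40) in replicates 1 and 2 were also the same in both control groups. The sources used here state no adjustment by replicate number, its part in the results was not tested, and p-values below measure only the spread within these deposited values.

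The promoter sequences below show the 250 bases before the start of transcription of the ligands with the highest rise, Wnt1 and Wnt11, of Wnt9a, the ligand with the highest FPKM after TGF-β, and of Wnt7a, which fell. They are from RefSeq (GRCm38.p6), read 5′ to 3′ on the strand of the gene, and capitals mark CAGAC or its reverse complement GTCTG, the core of the box that SMAD proteins, the transducers of TGF-β, can bind.
Wnt1, chr15:98789607-98789856, + strand: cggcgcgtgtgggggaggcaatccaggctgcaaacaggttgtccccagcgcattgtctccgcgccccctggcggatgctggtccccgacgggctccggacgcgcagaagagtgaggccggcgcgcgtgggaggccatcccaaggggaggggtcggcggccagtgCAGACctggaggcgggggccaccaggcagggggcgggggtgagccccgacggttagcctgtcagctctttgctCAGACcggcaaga
Wnt11, first start, chr7:98834862-98835111, + strand: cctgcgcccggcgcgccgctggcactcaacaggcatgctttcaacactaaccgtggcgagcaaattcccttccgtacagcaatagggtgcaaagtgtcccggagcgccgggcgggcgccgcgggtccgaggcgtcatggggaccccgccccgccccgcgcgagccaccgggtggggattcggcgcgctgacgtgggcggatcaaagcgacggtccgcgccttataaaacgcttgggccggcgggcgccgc
Wnt9a, chr11:59306680-59306929, + strand: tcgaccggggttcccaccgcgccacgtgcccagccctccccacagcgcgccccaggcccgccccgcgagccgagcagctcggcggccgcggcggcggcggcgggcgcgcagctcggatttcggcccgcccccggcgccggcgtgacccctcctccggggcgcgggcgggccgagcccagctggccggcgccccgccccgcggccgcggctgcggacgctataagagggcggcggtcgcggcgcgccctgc
Wnt7a, chr6:91411354-91411603, - strand: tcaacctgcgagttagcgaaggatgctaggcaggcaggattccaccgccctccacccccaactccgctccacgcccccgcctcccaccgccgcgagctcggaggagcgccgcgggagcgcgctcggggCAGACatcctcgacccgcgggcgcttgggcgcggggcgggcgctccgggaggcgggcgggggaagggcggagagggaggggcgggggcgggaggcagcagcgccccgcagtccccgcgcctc
The window of Wnt1 held 2 such boxes, that of Wnt7a held 1, and those of Wnt9a and of the first start of Wnt11 held 0. A second RefSeq start of Wnt11 (chr7:98838595-98838844, not printed) held 1. Searched on both strands, the box was present in 42.2% of 32851 mouse promoter windows of this length, so a match is common and is a description only. The first window of Wnt11 held 1 match to CTTTGA, a TCF/LEF core found in 13.8% of windows, and none of these 4 windows matched the AP-1 core TGANTCA (6.75% of windows) or the TEAD core GGAATG (12.6% of windows). RefSeq windows were matched for 6 of the 8 members, and Wnt5a and Wnt7b were not among them.

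Among the 8 ligands, 5 were up-regulated and 2 were down-regulated by TGF-β in WT astrocytes, and 3 were up-regulated and 2 down-regulated in RGC-32 KO astrocytes. Of all genes tested, 7.72% were up-regulated and 5.65% down-regulated in WT, and 6.61% and 4.93% in RGC-32 KO, where a call needed a log2 fold change of 0.6 or more in size together with an edgeR adjusted p under 0.05. With the replicate number as a block, 3 ligands rather than 5 were up-regulated in WT. Members were selected with these responses known, so nothing is read from the difference to all genes. The median log2 fold change of the 8 ligands was 0.76 in WT and 0.57 in KO, beside -0.0048 and 0.0031 for all genes tested.

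**Figure D1:**
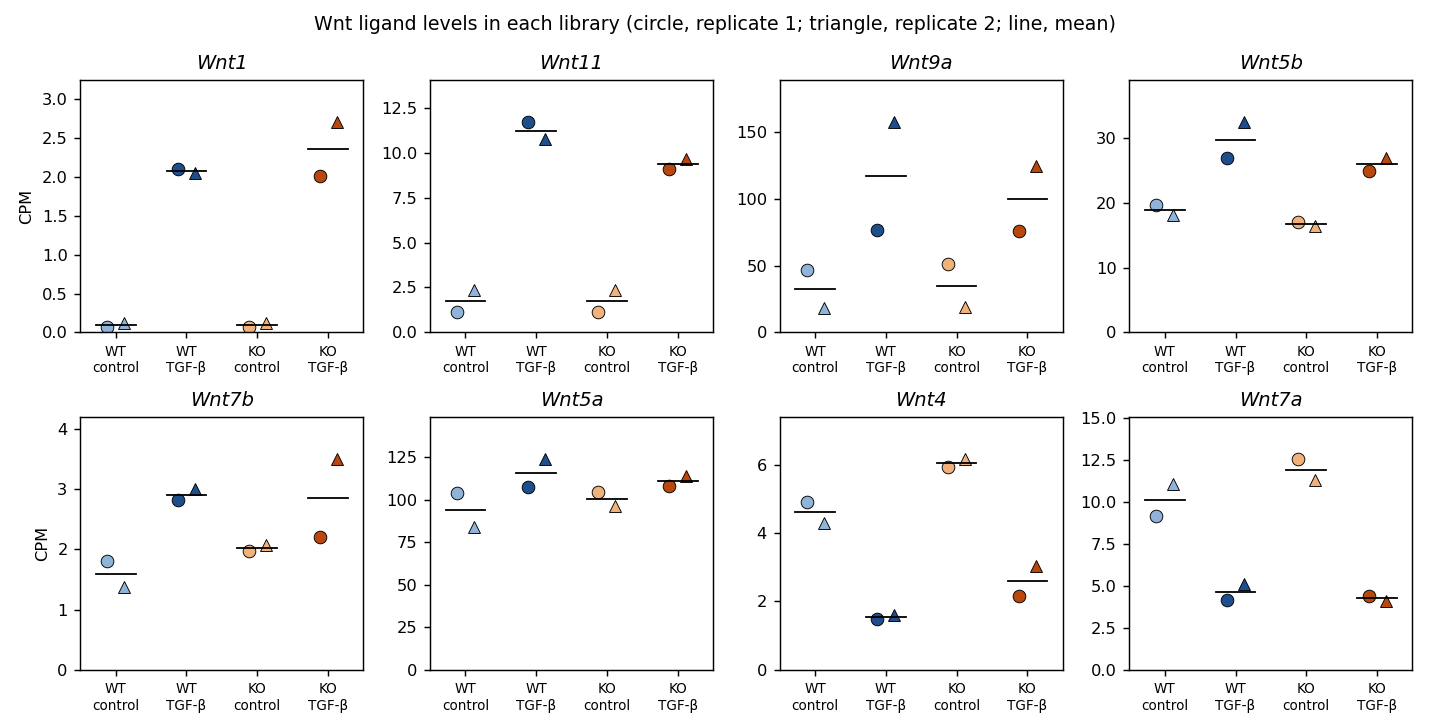
Levels of the 8 Wnt ligands in CPM (vertical axes, linear from 0, a separate scale for each gene) in the 4 groups, with 1 point per library (circle, replicate 1, and triangle, replicate 2) and the mean as a line. Wnt1 and Wnt11 were low in every control library and higher in every TGF-β library, Wnt4 and Wnt7a were lower with TGF-β, and the Wnt9a replicates lay far apart in all groups.

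Wnt1, a canonical ligand that patterns the midbrain and hindbrain, was close to absent without TGF-β. Its counts were 1 and 2 in the WT controls and 38 and 32 after TGF-β, and 1 and 2 in the KO controls and 30 and 41 after TGF-β. Every TGF-β library was above every control library. From summed counts, 3 against 70 in WT and 3 against 71 in KO, the level rose 22.3-fold and 25.6-fold. No interval is given, because the control counts were the same by replicate number in both genotypes. The gene passed the threshold in both genotypes. With 1 and 2 counts in the controls, however, it was kept for testing only through its counts with TGF-β. A gene kept in this way is high with TGF-β by selection, so the call is read no further than the counts. Wnt1 stayed a rare transcript even after TGF-β, at 2.07 ± 0.0387 CPM in WT and 2.36 ± 0.494 in KO (SD, n = 2).

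Wnt1 (chr15:98789857-98793837, + strand, build GRCm38) lies 11.7 kb from its neighbour Wnt10b, which is on the other strand. Wnt10b, a canonical ligand and no member of the set, had 18 and 7 counts in the WT controls and 30 and 48 with TGF-β, and 6 and 5 counts in the KO controls and 27 and 24 with TGF-β. It passed the threshold upward in both genotypes, by 1.58 in WT (SE 0.47, adjusted p = 0.035 in edgeR) and by 2.30 in KO (SE 0.58, adjusted p = 0.022) on the log2 scale. Its place among the tested genes likewise rested on the TGF-β libraries, so this call too is read no further than the counts.

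Wnt9a, best known from joint formation, showed the widest spread between replicates. Its level was 46.9 and 18.02 CPM in WT controls 1 and 2 and 76.8 and 157.7 CPM in WT TGF-β 1 and 2. In the KO libraries it was 50.9 and 18.8 CPM in controls 1 and 2 and 75.9 and 124.6 CPM in TGF-β 1 and 2. All TGF-β libraries were above all controls, but replicate 1 was the higher of the controls and the lower of the TGF-β libraries in both genotypes.

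In WT astrocytes Wnt9a was up-regulated, with a log2 fold change of 1.85 (SE 0.58) and an adjusted p of 0.0427 in edgeR. In KO astrocytes the log2 fold change was 1.53 (SE 0.58) and the adjusted p 0.0844, which missed the threshold. With the replicate number as a block the adjusted p in WT was 0.0581. The log2 fold change in WT was 1.30 (adjusted p = 0.182) without WT control replicate 2 and 1.23 (adjusted p = 0.228) without WT TGF-β replicate 2. Without either KO TGF-β library, which enter through the shared estimate of the spread, the log2 fold change in WT stayed at 1.85 and the adjusted p was 0.0509 or 0.051. The call in WT and not in KO does not by itself show a difference between the genotypes. The WT response minus the KO response was 0.32 on the log2 scale (95% interval -1.55 to 2.20, adjusted p = 1.0 in edgeR). That interval is too wide to say that there was no difference.

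Taken within replicate numbers, the ratio of Wnt9a with TGF-β to control was 1.64 in WT replicates 1 and 8.75 in WT replicates 2. In KO it was 1.49 in replicates 1 and 6.62 in replicates 2. The direction was upward in each of the 4 pairs, and the size followed the number and not the genotype. The reverse order appeared for Wnt11, with 10.1 against 4.5 in WT and 7.94 against 4.07 in KO, where the controls had 18 and 40 counts. Replicates with the same number are not known to share a culture, and these ratios are given with no test.

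**Figure D2:**
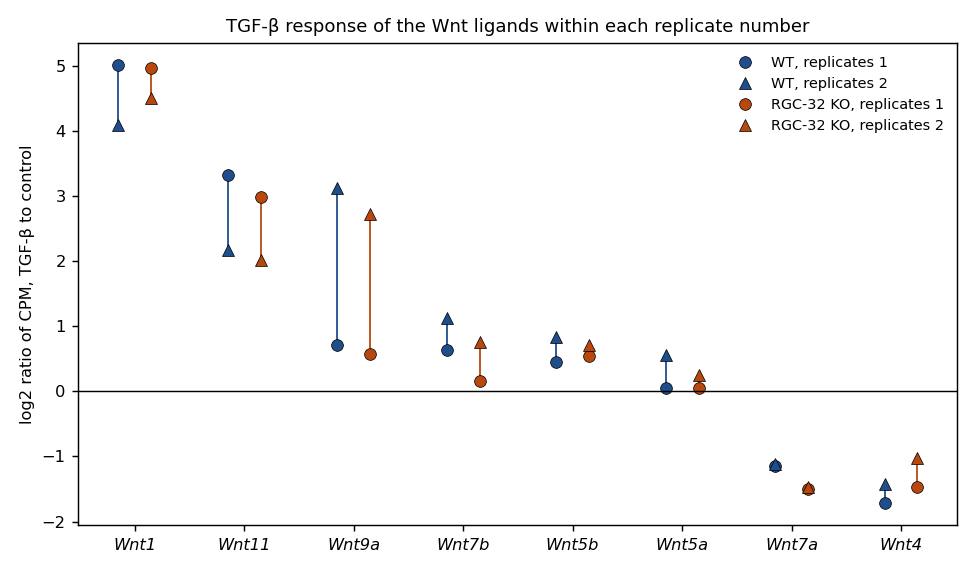
Log2 ratio of CPM with TGF-β to CPM in control (vertical axis) for the 8 Wnt ligands, taken within replicates 1 (circles) and within replicates 2 (triangles), WT in blue and RGC-32 KO in orange. Wnt9a shows the widest gap, with a log2 ratio of 0.71 in WT replicates 1 and 3.13 in WT replicates 2, while Wnt7a has nearly the same ratio in both.

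Wnt7a and Wnt7b are close relatives, both canonical ligands that act on brain endothelium, and they moved apart. Wnt7a fell from 9.16 and 11.1 CPM in the WT controls to 4.15 and 5.12 CPM, and from 12.6 and 11.3 CPM in the KO controls to 4.42 and 4.10 CPM. No TGF-β library reached the lowest control. The log2 fold change was -1.14 (SE 0.16) in WT and -1.48 (SE 0.16) in KO, and both passed the threshold.

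Wnt7b was rarer. It had 28 and 23 counts in the WT controls and 51 and 47 after TGF-β, and 31 and 35 counts in the KO controls and 33 and 53 after TGF-β. In WT the log2 fold change was 0.87 (SE 0.28) with an adjusted p of 0.0441 in edgeR, just past the threshold, and it was 0.0755 with the replicate number as a block. In KO it was 0.50 (SE 0.27) with an adjusted p of 0.206. The WT call was lost under 13 of 21 alternatives, among them leaving out any of the 4 WT libraries, where the log2 fold change ranged from 0.67 to 1.08, or either KO control library. Of the FPKM values, KO TGF-β 1 at 0.558 lay within the KO controls at 0.635 and 0.497.

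Wnt4, known from kidney tubule and reproductive tract development and reported in both branches, also fell. Its level was 4.90 and 4.30 CPM in the WT controls and 1.49 and 1.60 CPM after TGF-β. In KO it was 5.93 and 6.16 CPM in the controls and 2.14 and 3.04 CPM after TGF-β. The treated libraries lay below the controls in both genotypes. The log2 fold change was -1.57 (SE 0.22) in WT and -1.22 (SE 0.20) in KO, both past the threshold.

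The ligands Wnt5a, Wnt5b and Wnt11 are the members most associated with non-canonical signalling. Wnt11, which guides cell movements in the embryo, had 18 and 40 counts in the WT controls and 212 and 168 after TGF-β, and 18 and 40 counts in the KO controls and 136 and 146 after TGF-β. All treated libraries were above all controls. The log2 fold change was 2.64 (SE 0.32) in WT and 2.40 (SE 0.33) in KO, which passed the threshold in both.

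Wnt5b rose by less but with little spread. It was at 19.6 and 18.1 CPM in the WT controls and at 26.9 and 32.5 CPM after TGF-β, and at 17.0 and 16.3 CPM in the KO controls and at 24.9 and 26.9 CPM after TGF-β. The log2 fold change was 0.65 (SE 0.11) in WT and 0.63 (SE 0.11) in KO, close to the fold threshold of 0.6. On upper quartile normalization it was 0.57 and 0.55, and on FPKM values with a pseudocount of 0.1 it was 0.48 and 0.52, under the fold threshold in both genotypes. It was also under it in WT without WT control replicate 2 (0.58) or WT TGF-β replicate 2 (0.50), and in KO without RGC-32 KO TGF-β replicate 2 (0.56).

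Wnt5a, a ligand of Ror2 and the most abundant member in controls, did not pass the threshold. Its level was 103.9 and 84.2 CPM in the WT controls and 107.7 and 123.9 CPM with TGF-β, and 104.6 and 96.2 CPM in the KO controls and 108.2 and 114.3 CPM with TGF-β. The log2 fold change was 0.30 (SE 0.11, adjusted p = 0.0700 in edgeR) in WT and 0.15 (SE 0.11, adjusted p = 0.343) in KO. Its FPKM values overlapped between treatments, at 14.96 and 12.48 in the WT controls and 13.6 and 15.7 with TGF-β.

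**Figure D3:**
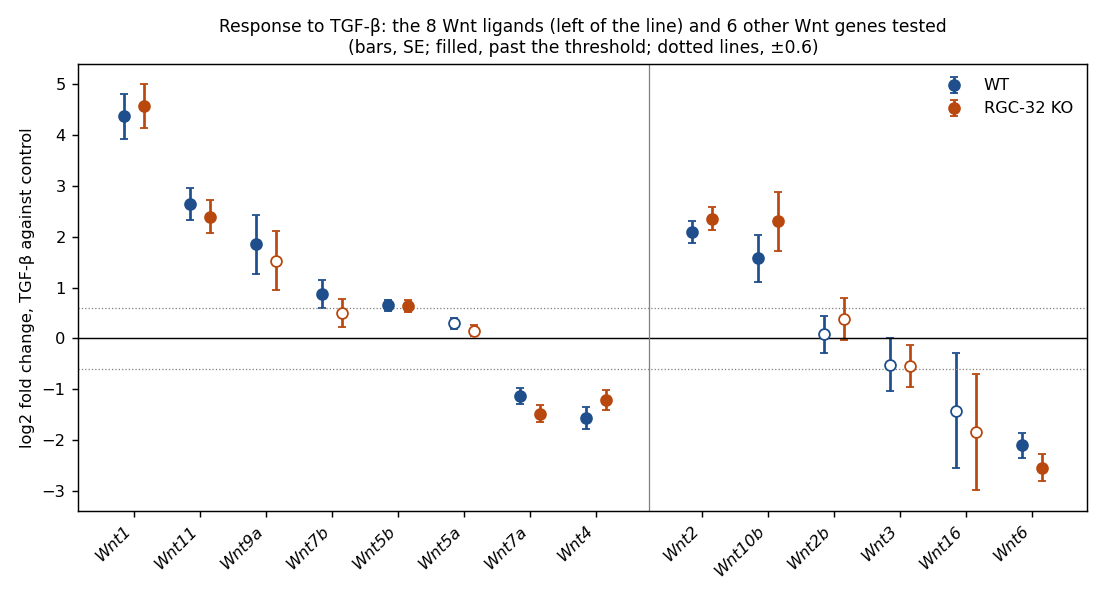
Log2 fold change of TGF-β against control (vertical axis) with its SE in WT (blue) and RGC-32 KO (orange) for the 8 Wnt ligands, left of the vertical line, and the 6 other Wnt genes tested. Filled points passed the threshold (dotted lines at ±0.6 and an adjusted p under 0.05), and the fitted value of Wnt1 rests on 3 control counts in each genotype.

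On the per-length scale of FPKM, the order of the ligands in the controls was Wnt5a, Wnt9a, Wnt5b, Wnt7a, Wnt4, Wnt11, Wnt7b and Wnt1 in both genotypes. The values of Wnt5a and Wnt9a, of Wnt9a and Wnt5b, and of Wnt11 and Wnt7b overlapped between libraries of a group, so the spread between replicates exceeded the gap between these neighbours. Within each of the 4 control libraries Wnt5a was nonetheless above Wnt9a. In WT controls the mean FPKM was 13.7 for Wnt5a, 8.90 for Wnt9a, 7.57 for Wnt5b, 2.88 for Wnt7a and 0.992 for Wnt4. With TGF-β the order was Wnt9a, Wnt5a, Wnt5b, Wnt11, Wnt7a, Wnt1, Wnt7b and Wnt4, with mean FPKM in WT of 30.4 for Wnt9a, 14.7 for Wnt5a, 10.6 for Wnt5b and 3.001 for Wnt11. No neighbours overlapped in WT TGF-β, while in KO TGF-β Wnt7b overlapped both Wnt1 and Wnt4.

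In the summed FPKM of the 8 ligands the share of Wnt5a was lower with TGF-β and that of Wnt9a higher. The mean FPKM of Wnt5a itself did not fall, at 13.7 and 14.7 in WT and 14.3 and 14.5 in KO, control and TGF-β. On FPKM with a pseudocount of 0.1, the rise of Wnt9a did not pass (adjusted p = 0.0719 in WT and 0.113 in KO in limma). Wnt5a made up 35.8 to 44.3% of the sum in the 4 control libraries and 22.2 to 28.3% in the 4 TGF-β libraries. Wnt9a made up 14.8 to 33.3% in the controls and 41.5 to 54.5% with TGF-β. Neither range overlapped between treatments, and the low end of the Wnt9a controls was set by the replicates numbered 2.

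**Figure D4:**
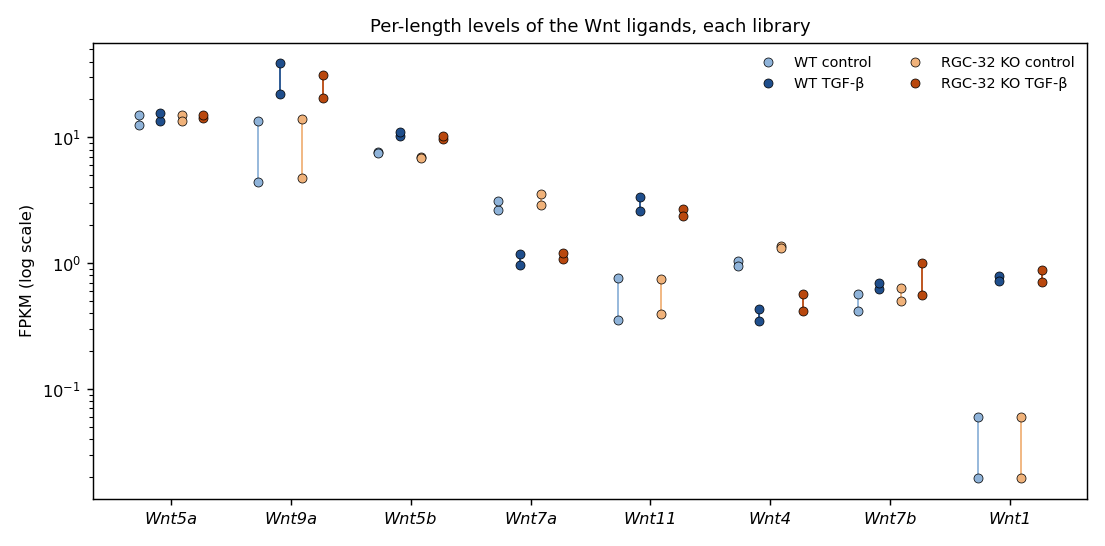
FPKM (vertical axis, log scale) of the 8 Wnt ligands in each library, with the 2 libraries of a group joined by a line. Wnt5a stayed between 12.5 and 15.7 FPKM in all 8 libraries, whereas Wnt9a ran from 4.38 to 38.7 FPKM and the control libraries of Wnt1 were at most 0.0596 FPKM.

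RGC-32 KO and WT astrocytes were compared to ask whether the ligands depend on RGC-32. Of the 8 ligands, 0 passed the threshold without TGF-β, where 0.037% of all genes tested did, and 0 passed with TGF-β, where 0.0444% did. Rgcc, the deleted gene, did not pass either (KO minus WT -0.97, adjusted p = 0.780, in the controls and -2.54, adjusted p = 0.133, with TGF-β, in edgeR), so a count of 0 at 2 libraries a group says little on its own. The marker sums of the genotypes, given at the end, also differed, though no astrocyte or meningeal fibroblast marker passed between them. At an unadjusted p under 0.05 in edgeR, 0 ligands differed in the controls and 1 with TGF-β. Of the 13509 genes tested, 924 did so in the controls and 1576 with TGF-β, so nothing is read from a count of 1. That ligand was Wnt4, at 2.59 ± 0.633 CPM in KO against 1.55 ± 0.0749 CPM in WT (SD, n = 2). The KO minus WT difference was 0.75 on the log2 scale (SE 0.24, 95% interval 0.20 to 1.30, adjusted p = 0.303 in edgeR). In CPM both KO libraries were above both WT libraries with TGF-β, while in FPKM KO replicate 1 (0.419) lay below WT replicate 2 (0.435), and over the alternatives the difference ran from 0.10 to 0.99. In the controls both KO libraries were also above both WT libraries, and the difference was 0.40 (95% interval -0.03 to 0.82, adjusted p = 0.725). In DESeq2, likewise, 0 of the 8 ligands passed in either comparison.

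In the controls the differences of the other ligands between KO and WT ran from -0.18 for Wnt5b to 0.35 for Wnt7b on the log2 scale. The 95% interval was -0.43 to 0.08 for Wnt5b and -0.16 to 0.35 for Wnt5a. For Wnt9a it was -1.29 to 1.495 and for Wnt1 -1.95 to 1.92. The data bounded the genotype difference closely for the abundant ligands with tight replicates and left it wide for Wnt9a and Wnt1.

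The interaction asks whether the response to TGF-β differed between the genotypes, as the WT response minus the KO response. It passed the threshold for 0 of the 8 ligands and for 0.0% of the 13509 genes in edgeR, where 381 genes and 0 ligands had an unadjusted p under 0.05, and for 0 genes in DESeq2. Values ran from -0.35 for Wnt4 (95% interval -1.04 to 0.34) to 0.38 for Wnt7b (95% interval -0.52 to 1.28). The interval for Wnt5a was -0.21 to 0.51 and for Wnt5b -0.34 to 0.37. For Wnt11 the value was 0.25 (95% interval -0.86 to 1.36), and for Wnt7a 0.35 (95% interval -0.19 to 0.89).

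Of the other 11 mouse Wnt genes, 7 were in the count table and 6 were tested, and 2 passed the threshold upward and 1 downward in each genotype. Of all genes tested, 7.72% passed upward and 5.65% downward in WT, and 6.61% and 4.93% in KO. This list too was chosen with earlier results known, so nothing is read from its counts. Wnt2, a canonical ligand, rose from 54 and 73 counts to 269 and 296 in WT and from 51 and 35 counts to 189 and 219 in KO, log2 fold changes of 2.10 (SE 0.21) and 2.35 (SE 0.23). Wnt6, a ligand of epithelia, fell from 84 and 114 counts to 31 and 17 in WT and from 101 and 96 counts to 15 and 16 in KO, by 2.11 (SE 0.24) and 2.55 (SE 0.26) on the log2 scale. Wnt10b is given above as the neighbour of Wnt1. Wnt2b and Wnt3 did not pass, and neither did Wnt16, whose counts were 0 in TGF-β replicate 2 of both genotypes. Wnt10a had at most 13 counts and was not tested, Wnt3a, Wnt8a and Wnt8b appeared only among the FPKM values at no more than 0.144, and Wnt9b was not analysed here.

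Of the machinery that Wnt ligands need for secretion, 0 of 8 genes passed in WT and 1 in KO, Porcn, the acyltransferase that attaches the lipid, with a log2 fold change of 0.69 (SE 0.09). In WT Porcn was at 0.52 (SE 0.09, adjusted p = 0.00489 in edgeR), under the fold threshold only. Among 12 Frizzled and co-receptor genes, 1 passed in each genotype. It was Fzd6, which rose by 1.25 (SE 0.12) in WT and 1.29 (SE 0.12) in KO on the log2 scale. Of 6 non-canonical receptor genes, Ror2, the partner of Wnt5a, rose by 0.77 (SE 0.15) in WT and 0.91 (SE 0.15) in KO. The WNT7 co-receptors Adgra2 and Reck did not pass in either genotype. Of all genes tested, 7.72% passed upward in WT and 6.61% in KO, so nothing is read from the counts in these lists.

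Some members share exonic bases with another gene, and the libraries were unstranded. Wnt5a, Wnt7b and Wnt11 have 358, 324 and 364 exonic bases, of 7823, 4898 and 4137, in common with Gm2670, AU022754 and Gm8398 on the other strand, which are not in the count table. Reads from these stretches cannot be told apart. Wnt5b (chr6:119432531-119544347, - strand) spans Fbxl14 on the other strand but shares 0 exonic bases with it, and Fbxl14 stayed between 44.0 and 48.5 CPM in all 8 libraries.

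Positions of the other ligands, from GENCODE M21 on GRCm38, are chr4:137277489-137299726 (+) for Wnt4, chr14:28504750-28527448 (+) for Wnt5a, chr6:91363981-91411363 (-) for Wnt7a, chr15:85535437-85582473 (-) for Wnt7b, chr11:59306928-59333552 (+) for Wnt9a and chr7:98835112-98855195 (+) for Wnt11. Wnt9a lies 16.2 kb from Wnt3a, which was at no more than 0.0493 FPKM in any library while Wnt9a was at 4.38 FPKM or more.

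The genes whose log2 CPM followed a ligand most closely over the 8 libraries were sought among 13072 genes with a mean of at least 1 CPM, for the ligands with the highest mean level, Wnt5a, Wnt9a and Wnt5b. For Wnt9a they were Card10 (Pearson r = 0.992), Dlgap4 (r = 0.992) and Crabp2 (r = 0.990). Card10 had the same order by replicate number as Wnt9a, at 10.3 and 1.73 CPM in the WT controls and 21.1 and 43.3 CPM with TGF-β. For Wnt5b they were Itch (r = 0.995), Serpinh1 (r = 0.995) and Pcdh7 (r = 0.994), and for Wnt5a Trim67 (r = 0.984), Lamc3 (r = 0.984) and Psmc5 (r = 0.979). The libraries share treatment and replicate number, so these values describe a common pattern over 8 points and carry no test.

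Markers of other cells moved with TGF-β beside the ligands. The summed level of the 9 meningeal fibroblast markers present was 4260 to 5450 CPM in the WT controls and 8940 to 10100 CPM with TGF-β. In KO it was 3480 to 3690 CPM in the controls and 6670 to 6790 CPM with TGF-β, so the KO sum lay below the WT sum under both conditions. Between the genotypes 0 of the 9 passed under either condition. Col1a1, Col1a2, Pdgfrb and Lum were lower in every KO library under both conditions. The other members overlapped between genotypes in the controls, with TGF-β or in both. Among the 9 markers, 5 passed upward with TGF-β in each genotype, led by Col1a1, Pdgfrb and Col1a2, which TGF-β can also induce in other cells. Of all genes tested, 7.72% passed upward and 5.65% downward in WT, and 6.61% and 4.93% in KO. Collagens made up most of the sum: in WT TGF-β, Col1a1 was at 3810 and 4630 CPM and Col1a2 at 3160 and 3440 CPM. Not all members rose. Dcn was the 1 that passed downward in WT, at a log2 fold change of -0.62, with Foxc1 at -0.42 and Lum at -0.32. In KO they were at -0.36, -0.29 and -0.17. Crabp2, also on this list, was at 14.2 and 4.12 CPM in the WT controls and 31.5 and 61.2 CPM with TGF-β. It was found above among the genes most like Wnt9a, so its likeness to Wnt9a is given by selection. Aldh1a2 had the same order in the WT controls, at 28.1 and 19.5 CPM. Col1a1, Col1a2, Col3a1, Dcn, Lum, Foxc1 and Pdgfrb had the opposite order there, with Col3a1 at 697 and 1230 CPM. The astrocyte markers summed to 4230 to 4460 CPM in the WT controls and 3330 to 3460 CPM with TGF-β. In KO they summed to 4910 to 5630 CPM in the controls and 4140 to 4450 CPM with TGF-β, so here the KO sum lay above the WT sum. With TGF-β 2 of 10 were down-regulated in each genotype, and 0 of 10 passed between the genotypes under either condition. According to the methods the meninges were removed and nearly all cells stained for the astrocyte protein GFAP. Microglial markers ran from 926 to 1240 CPM over all libraries. The part of these markers in the levels of the ligands was not tested, and in bulk RNA fewer cells of a type and less RNA per cell cannot be told apart.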

How the data were processed

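RNA of cultured astrocytes was sequenced in 8 unstranded libraries. The authors aligned reads with STAR in the VIPER pipeline (build mm10, per the labels) and deposited whole-number counts per gene symbol. The authors also deposited FPKM values from Cufflinks, used here for levels between genes and as an alternative. Versions, annotation and counting program are not given in the sources used here. Of the gene names, 21 were turned into dates and 2 entries share a name, and these were left as they are. The deposited DESeq2 tables hold the authors' own fold changes and p-values and were not used.

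Groups and replicate numbers came from the sample titles. Counts were fitted in R 4.3.3 with edgeR 4.0.16 (filterByExpr, TMM, quasi-likelihood test, 4 group means over 8 libraries, Benjamini-Hochberg adjustment over 13509 genes, two-sided), and the procedure was tested on simulated data. CPM uses TMM-scaled totals, and log2 CPM a prior count of 2. SE and 95% intervals are from the fit. Alternatives used DESeq2 1.42.0, limma 3.58.1 (voom, and FPKM on a log2 scale with a pseudocount of 0.1 or 1), other scalings, filters and thresholds, the replicate number as a block, and leaving out each library.

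The ligands and all gene lists were chosen with earlier results of these data known. By rule, the text names all members, the other Wnt genes, the 3 genes of lowest adjusted p per list and comparison among those passing, and the 3 genes most like each of the 3 members with the highest mean CPM. Wnt10b and Wnt3a as neighbours, the genes that overlap a member, Adgra2 and Reck, and marker genes absent from the table were named after their values were seen.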

Additional observations from a re-analysis of the deposited data

How the results depend on the processing

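With 2 libraries a group, depth limits Wnt1, Wnt7b and Wnt11 in the controls, and the replicate spread limits Wnt9a. No ligand changed direction with TGF-β in either genotype under any alternative. Of the 5 ligands up-regulated in WT, 3 passed with DESeq2, upper quartile normalization, the replicate number as a block, or edgeR on 4 libraries, and 2 with FPKM at a pseudocount of 0.1 or 1. Leaving out 1 library gave 2 to 4, with 2 without WT control replicate 2 and without WT TGF-β replicate 2 and 4 without each of the other 6. Of the 2 down-regulated in WT, 1 passed with FPKM at a pseudocount of 1. With Bonferroni's correction, 0 ligands passed in either direction in WT or KO. Of all 13509 genes tested, 143 were up-regulated and 31 down-regulated in WT under that correction, and 119 and 22 in KO. Nothing is therefore read from that 0. Without it, 1043 of 13509 genes were up-regulated in WT. The number was 912 of 13937 with DESeq2, 857 of 13509 with upper quartile normalization and 926 of 13380 with edgeR on 4 libraries. With FPKM it was 787 and 508 of 18644 at pseudocounts of 0.1 and 1. A filter of at least 10 counts in every library left Wnt1 untested. The other alternatives kept each count of ligands within 1.5 times, and no genotype or interaction comparison called a ligand.

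The labels do not say what a replicate number marks, so the samples were not treated as paired. Across genes, same-numbered libraries deviated together between genotypes (r = 0.587 in the controls, r = 0.329 with TGF-β) and in opposite directions between control and TGF-β (r = -0.312 in WT, r = -0.321 in KO). With the replicate number as a block, 957 genes were up-regulated in WT and 814 in KO, in place of 1043 and 893, and 3 ligands in each genotype. A crossed pairing, chosen after seeing the data, gave 1167 and 1040, and called 5 ligands up in WT and 4 in KO, Wnt9a among them in both.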

Other observations

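Secreted antagonists of Wnt signalling changed in both directions with TGF-β. Of 14 listed genes 8 were tested, and 2 passed upward and 5 downward in WT, and 2 upward and 3 downward in RGC-32 KO. Of all genes tested, 7.72% passed upward and 5.65% downward in WT, and 6.61% and 4.93% in KO. The lists in this section were chosen with earlier results known, so nothing is read from their counts. Sostdc1, a secreted inhibitor of Wnt and BMP signals, fell by 1.15 (SE 0.10) in WT and 0.76 (SE 0.10) in KO on the log2 scale, and Frzb, a secreted Frizzled-like protein that binds Wnts, fell by 1.09 (SE 0.16) in WT and 1.03 (SE 0.18) in KO. Dkk3, a Dickkopf family member, rose by 1.13 (SE 0.13) in WT and 1.37 (SE 0.13) in KO, and Dkk2 rose by 1.18 (SE 0.20) in WT and 1.28 (SE 0.21) in KO. The R-spondin axis, which sets how long Frizzled receptors stay at the cell surface, gave log2 fold changes past the threshold for Rspo2 at -1.88 (SE 0.31) in WT and -1.86 (SE 0.35) in KO, Lgr6 at 1.85 (SE 0.32) and 2.29 (SE 0.36), and Rnf43 at -1.12 (SE 0.25) in WT, where KO gave -0.43 (SE 0.26, adjusted p = 0.262 in edgeR), with 1 of 7 tested genes passing upward in each genotype and 2 downward in WT and 1 in KO.

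Of 12 beta-catenin feedback targets tested, 2 passed upward in each genotype, and 4 passed downward in WT and 1 in KO. The shares of all genes tested were 7.72% upward and 5.65% downward in WT, and 6.61% and 4.93% in KO. Lef1, a TCF/LEF factor, rose by 1.49 (SE 0.22) in WT and 1.45 (SE 0.22) in KO, and Nkd2, an inhibitor of Dishevelled, by 1.01 (SE 0.22) in WT and 1.36 (SE 0.23) in KO. Ccnd1, which drives entry into the cell cycle, fell by 0.81 (SE 0.09) in WT and 0.74 (SE 0.09) in KO, and Nkd1, a relative of Nkd2, fell by 0.81 (SE 0.14) in WT and was at -0.41 (SE 0.15, adjusted p = 0.0763 in edgeR) in KO. The interaction called no gene of these lists. Summed markers of the oligodendrocyte lineage ran from 221 to 266 CPM in the controls and 374 to 545 CPM with TGF-β, but Cspg4 alone went from 24.1 to 38.5 CPM to 153 to 302 CPM, Pdgfra was down-regulated, and the median log2 fold change of the list was 0.15 in WT and 0.04 in KO. Summed markers of neurons ran from 280 to 338 CPM and 355 to 397 CPM with TGF-β, those of endothelial cells from 99.8 to 127 CPM and 67.8 to 80.5 CPM, and those of ependyma and choroid plexus from 356 to 424 CPM and 229 to 288 CPM. The endothelial markers went both ways, with 2 passing upward and 1 downward in WT and 1 upward and 2 downward in KO. Cdh5, the largest part of that sum, was down-regulated in both genotypes, while Flt1 was up-regulated in both and Esam in WT.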
